A study of Rattus norvegicus with 30 samples.

Results

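The change in the response of the rat hippocampus to kainate between 6 and 24 h after treatment was described here across 5842 probe sets, out of 8740 on the array that are not array controls. They stand for 3479 genes and were taken in when their signal was above 35 on at least 3 of the 12 arrays of 6 and 24 h. The quantity followed is a difference of differences on the log2 scale: kainate minus phosphate-buffered saline (PBS) at 24 h, less kainate minus PBS at 6 h. A positive value means that the kainate effect was higher at 24 h than at 6 h. The 4 groups, of 3 arrays each, are kainate at 24 h, PBS at 24 h, kainate at 6 h and PBS at 6 h, each named for the time at which the rats were killed. They belong to a series of 30 arrays with further kainate and PBS groups at 1, 72 and 240 h. A probe set could pass the minimum of 35 through a single group, which favours probe sets that are high in that group. Among others, Egr2, Ccl3, Socs3, Plaur and Ccn1 entered only through kainate at 6 h, and Cyba only through kainate at 24 h. The differences of these named genes also passed with no filter. All arrays held total RNA of rat hippocampus on an Affymetrix array. Strain, age, sex, dose and route are not given in the labels used here, nor whether an array holds 1 animal or several, so the p-values speak only of how much these arrays vary, which may be technical.

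Kainate is an agonist of a class of glutamate receptors and brings on seizures, which start or spread strongly in the hippocampus. Firing neurons switch on immediate early genes, transcription factors such as Fos and Egr1 that need no new protein for their own induction, and soon after them effector genes such as Arc and Bdnf that act at synapses. Damaged or overexcited tissue then draws in a glial response, in which microglia and astrocytes make cytoskeletal proteins, antigen-presenting molecules, proteases and their inhibitors over a longer time.

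Replicate arrays correlated with an r of 0.938 to 0.978 across the tested probe sets, and arrays of different groups among these 12 with 0.879 to 0.952. The log2 ratio of the 3 prime to the 5 prime probe set for beta-actin, a sign of RNA integrity, was 0.66 to 0.95 on the kainate and 0.64 to 0.78 on the PBS arrays of 24 h, against 0.36 to 0.46 and 0.45 to 0.59 on the kainate and PBS arrays of 6 h. The times did not overlap in it, so time and this sign of quality cannot be told apart in the difference, while each kainate effect was taken against PBS arrays of the same time. The hexokinase ratio of PBS array 1 of 24 h, 2.29, was above the 0.44 to 1.43 of the other 11 arrays. Neurons and glia were both plainly present: signals were 818 to 1697 for the synaptic protein gene Snap25, 1428 to 1867 for the astrocyte transporter gene Slc1a3 and 3712 to 4928 for the myelin gene Mbp. Prox1, Gfap and Cd68 of the marker list have no named probe set here.

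Between 6 and 24 h the kainate response lost most of its activity genes, some of which ended below their PBS level, and gained genes such as S100a4, Cyba and Vim. The glial lists took part only in some members. Of 13 tested reactive astrocyte genes 4 were called higher, and of 10 microglia and macrophage markers 2. The difference passed at 346 probe sets (5.92%), with 144 higher (2.46%) and 202 lower (3.46%) at 24 h than at 6 h (limma, Benjamini-Hochberg adjusted p under 0.05). Taking each gene by its brightest probe set, 88 genes had a higher and 118 a lower kainate effect at 24 h. At an unadjusted p under 0.05 it was 1215 probe sets (20.8%), against 1610 (27.6%) for the effect at 24 h and 895 (15.3%) for that at 6 h. The 3 kainate deviations from the PBS mean did not overlap between the times at 46% of all probe sets, and kainate and PBS arrays did not overlap at 29.3% of them at 24 h and at 27.9% at 6 h, so lack of overlap by itself says little. The count ranged from 212 to 436 when 1 of the 12 arrays was left out: it was 214 without kainate array 3 of 24 h, 227, 218 and 212 without kainate array 1, 2 or 3 of 6 h, and 222 and 219 without PBS array 2 or 3 of 6 h. In RNA of a whole tissue, more cells of a type and more RNA per cell cannot be told apart.

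The passing genes were then sorted by whether their effect passed at each time. At 6 h alone, 41 genes were higher than PBS (80 probe sets, 1.37%) and 13 were lower (18, 0.308%), 1.68% of probe sets in all. At 24 h alone, 59 genes passed with a positive difference (96 probe sets, 1.64%) and 52 with a negative one (79, 1.35%), 3% in all. A further 12 genes passed at both times with opposite signs, and 8 passed at both with the same sign but different size (15 probe sets, 0.257%, 7 positive, 0.12%, and 8 negative, 0.137%). The last 21 genes passed in the difference and at neither time by itself (37 probe sets, 0.633%, 20 positive, 0.342%, and 17 negative, 0.291%). By comparison, 26 genes passed at both times in the same direction with a difference that did not pass (43 probe sets, 0.736%, of which 23, 0.394%, had a positive difference). The kainate effect itself passed at 726 probe sets at 24 h (12.4%; 317 higher, 5.43%, and 409 lower, 7%) and at 253 at 6 h (4.33%; 205 higher, 3.51%, and 48 lower, 0.822%). Over all 5842 probe sets the effects at 24 and 6 h correlated with r = 0.155 and a Spearman's rho of 0.053, a description over probe sets that share the arrays of each time.

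**Figure D1:**
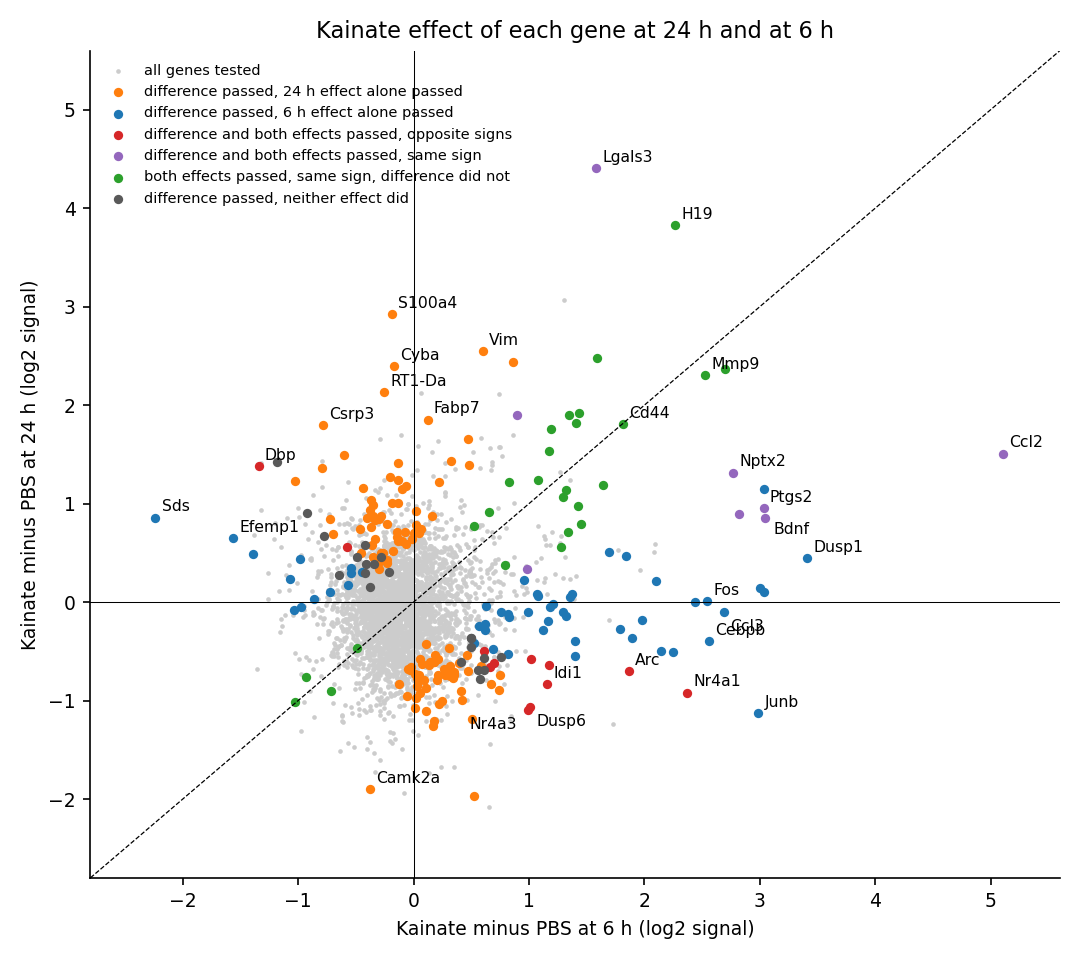
Each point is a gene, with its kainate effect at 6 h on the horizontal axis and at 24 h on the vertical axis, both as kainate minus PBS in log2 signal. Colours mark which tests passed, the dashed line marks equal effects, and the 12 genes in red passed in opposite directions, 10 of them at lower right and 2 at upper left.

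Immediate early transcription factors lost their induction by 24 h. Of 21 tested members of this list, 14 were lower in the difference and 0 higher, with a median difference of -1.17 against 0.05 over all 3479 genes. Their effect passed in 0 members upward and 4 downward at 24 h, against 15 upward and 0 downward at 6 h. Of all 3479 genes 185 passed upward and 272 downward at 24 h, and 109 upward and 35 downward at 6 h. In the difference 88 of all genes were higher and 118 lower. The counts of this list and of those that follow are to be read beside these shares. The summed signal of the 21 genes was 2364 to 2674 on the kainate and 3122 to 3221 on the PBS arrays of 24 h, and 8532 to 9814 on the kainate and 3079 to 3580 on the PBS arrays of 6 h. Thus in this sum, which bright genes weigh on most, the kainate arrays lay below their PBS arrays at 24 h and above them at 6 h, with no overlap at either time. By gene, the median effect at 24 h was -0.10, beside -0.06 over all genes, and 9 of the 21 were above 0.

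Junb, a subunit of the AP-1 transcription factor, had the largest fall among brightest probe sets, while dimmer ones of Fos and Dusp1 had differences of -4.68 and -4.15. Its signal was 50.9, 99.2 and 29.2 on the kainate arrays and 153, 88.2 and 114 on the PBS arrays of 24 h, and 582, 467 and 719 on the kainate arrays and 126, 28.7 and 109 on the PBS arrays of 6 h. All kainate arrays of 6 h stood far above the other 9, and kainate and PBS arrays of 24 h overlapped. The difference was -4.12 ± 0.55 (SE, 3 arrays per group, adjusted p = 1.05e-05), a kainate to PBS ratio 17.3-fold smaller at 24 h than at 6 h. The 24 h effect alone, -1.13, did not pass (adjusted p = 0.0536), and that of 6 h was 2.99. A second, dimmer Junb probe set passed as well, with a smaller difference of -1.72 and an effect of -0.22 at 24 h that did not pass.

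Fos, the partner of Jun proteins in AP-1, was back at its PBS level by 24 h. It read 248, 208 and 208 with kainate and 202, 245 and 213 with PBS at 24 h, against 1751, 1501 and 1760.1 with kainate and 266, 267 and 326 with PBS at 6 h. The groups of 24 h overlapped, while the kainate arrays of 6 h stood far above all others. The effect of 0.01 at 24 h and 2.55 at 6 h gave a difference of -2.54 ± 0.26 (adjusted p = 2.08e-07), and all 3 tested probe sets of Fos passed with the same sign. Egr2, a zinc finger factor, followed a like course at a lower level, with 28.3, 13.7 and 18.7 on the kainate and 22.8, 26.6 and 34.3 on the PBS arrays of 24 h, and 106, 120.2 and 173 on the kainate and 23.4, 33.3 and 26.2 on the PBS arrays of 6 h. Kainate and PBS overlapped at 24 h and were far apart at 6 h, and the difference was -2.76 ± 0.44 (adjusted p = 0.000129).

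Cebpb, a leucine zipper factor of the inflammatory response, read 61.99, 28.4 and 52.02 on the kainate and 62.5, 59.3 and 56.2 on the PBS arrays of 24 h. At 6 h its signals were 259, 246 and 305 with kainate and 41.7, 49.7 and 45.9 with PBS. Again the kainate arrays of 6 h stood alone, and the difference was -2.95 ± 0.32 (adjusted p = 4.89e-07). The remaining passing members were Fosl1 (-2.44), Atf3 (-1.40), Jun (-1.30), Egr4 (-1.17), Klf4 (-1.09), Nr4a2 (-1.02) and Klf10 (-0.99), beside Nr4a1, Nr4a3 and Egr1, which reversed. For Jun 1 of 4 probe sets passed, and for Egr4, Nr4a2 and Klf10 1 of 2 each. The other probe set had 0.32 for Egr4, -1.32 for Nr4a2 and -0.20 for Klf10. Jund, the constitutive member of the Jun family, had a difference of 0.15 (95% interval -0.57 to 0.86) and did not pass. Some members passed on a dimmer probe set only. The brightest probe sets of Cebpd, Crem and Fosl2 had -0.30, -0.60 and -0.88 and did not pass, whereas 2 of 3 probe sets of Cebpd, 1 of 3 of Crem and 1 of 2 of Fosl2 did, with the lowest at -3.18, -3.20 and -2.52.

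**Figure D2:**
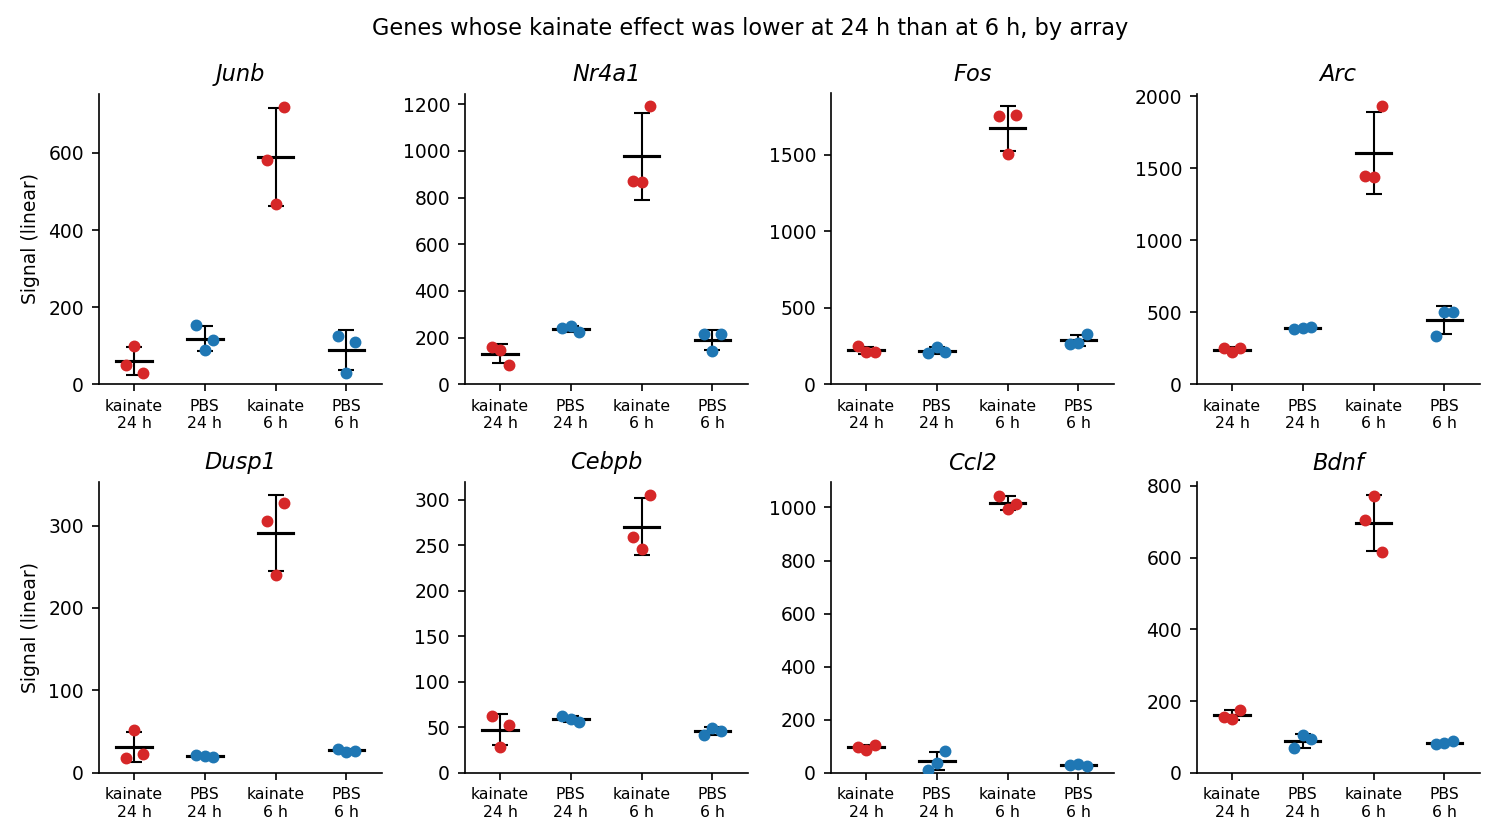
Signal of 8 genes on each of the 12 arrays, with kainate in red and PBS in blue, 24 h to the left of 6 h, and the group mean with 1 SD as bars. In each panel the 3 kainate arrays of 6 h stand above all other arrays, and for Ccl2 and Bdnf the kainate arrays of 24 h still lie above the PBS arrays of 24 h.

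Activity-regulated effector genes fell back as well. Of 20 tested, 14 were lower in the difference and 0 higher, with a median of -1.41. At 24 h 4 of them passed upward and 3 downward, against 15 and 0 at 6 h. Their summed signal of 3752 to 4457 on the kainate arrays of 24 h overlapped the 4281 to 4510 of the PBS arrays, whereas at 6 h it was 10829 to 12477 with kainate and 4223 to 4391 with PBS.

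Dusp1, a phosphatase that shuts off MAP kinases, had signals of 18.1, 51.5 and 23.1 with kainate and 22.1, 20.3 and 18.9 with PBS at 24 h. At 6 h they were 306, 239.8 and 328 with kainate and 29.1, 25.5 and 26.9 with PBS. At 24 h 2 kainate arrays were above all PBS arrays and 1 was below them, while at 6 h all 3 were far above. The difference was -2.96 ± 0.73 (adjusted p = 0.0137), and 3 of 3 probe sets passed. Errfi1, whose protein restrains signalling by the EGF receptor, had 83.3, 84.9 and 93.8 on the kainate and 96.6, 75.1 and 73.2 on the PBS arrays of 24 h, and 507, 453 and 589 on the kainate and 56.9, 86.5 and 49.7 on the PBS arrays of 6 h. The groups overlapped at 24 h and were far apart at 6 h. Its effect was 0.11 at 24 h and 3.04 at 6 h, with a difference of -2.93 ± 0.28 (adjusted p = 6.56e-08).

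Bdnf, an activity-dependent neurotrophin, lost most of its induction but kept some. Its signal was 155, 149 and 176 with kainate and 68.2, 107 and 94.5 with PBS at 24 h, and 704, 771 and 615 with kainate and 80.3, 83.3 and 88.1 with PBS at 6 h. The groups were apart at both times. Bdnf was 1.81-fold above PBS at 24 h and 8.27-fold at 6 h, with a difference of -2.19 ± 0.24 (adjusted p = 8.52e-07). Of its 7 tested probe sets 4 passed, with differences over all 7 of -3.49 to -0.07. Those with -3.08 and -3.49 did not pass at 24 h, where their effects were 0.30 (adjusted p = 0.595) and 0.47 (adjusted p = 0.637). The one with -2.94 passed at both times, as did the brightest. Ptgs2, the inducible cyclooxygenase, and Nptx2, a pentraxin secreted at excitatory synapses, likewise passed at both times, with differences of -2.08 and -1.45. Each has a second probe set that passed in the difference (-2.15 and -2.86) but not at 24 h, where its effect was -0.10 for Ptgs2 (adjusted p = 0.805) and 0.93 for Nptx2 (adjusted p = 0.160). Nptx2 averaged 563 ± 67.9 with kainate and 227 ± 31.8 with PBS at 24 h, against 1902 ± 203 with kainate and 278 ± 10.5 with PBS at 6 h (SD, n = 3 each). Sgk1, a kinase induced by glucocorticoids and activity, Ifrd1, Syt4, a synaptotagmin, and Dusp5, another MAP kinase phosphatase, had negative differences of -1.79, -1.37, -1.23 and -0.98, and none of these 4 passed at 24 h. The kinase gene Pim3 (-0.87) passed in the difference and at neither time by itself. The tissue plasminogen activator gene Plat stayed high at both times, by 0.79 at 24 h and 1.45 at 6 h. Homer1, a scaffold of the postsynapse, differed between its 6 probe sets. The brightest had a difference of -0.37 (adjusted p = 0.390), while 2 others passed, 1 of them with -3.89, from -0.63 at 24 h and 3.25 at 6 h, and so was a reversal. The files do not pair these probe sets with transcripts.

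Of 21 tested members of the cytokine and acute inflammation list, the chemokine genes Ccl2 and Ccl3 and the feedback gene Socs3 were lower in the difference and 0 were higher, with a median of -0.49. At 24 h 3 members passed upward, against 7 at 6 h, beside 185 and 109 of all 3479 genes. A further 9 members on the array, among them Il6 and Tnf, were not above the signal minimum.

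Ccl2, a chemokine that attracts monocytes, had the largest 6 h effect of the named genes. It read 97.3, 87.3 and 103 on the kainate and 12.2, 38.6 and 81.01 on the PBS arrays of 24 h, and 1044, 994 and 1012 on the kainate and 29.7, 34.4 and 24.96 on the PBS arrays of 6 h. All kainate arrays were above the PBS arrays of their time. Ccl2 was 2.84-fold above PBS at 24 h and 34.6-fold at 6 h, with a difference of -3.60 ± 0.61 (adjusted p = 0.000379). Ccl3, a chemokine of microglia and macrophages, was above the floor on all arrays of a group only with kainate at 6 h. It read 1.04, 5.36 and 3.43 with kainate and 3.80, 13.4 and 3.70 with PBS at 24 h, and 66.3, 60.1 and 85.9 with kainate and 2.88, 3.29 and 2.68 with PBS at 6 h. All values but those of the 3 kainate arrays of 6 h and 1 PBS array of 24 h lay below the floor of 10.9 to which low signals were set, so at 6 h it was at least 6.45-fold higher with kainate, and the difference of -2.79 ± 0.48 (adjusted p = 0.000442) rests on floored values.

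Socs3, which blocks cytokine signalling through STAT proteins, had signals of 18.5, 13.8 and 18.6 with kainate and 10.8, 16.4 and 19.9 with PBS at 24 h. At 6 h they were 196, 161 and 156 with kainate and 17.5, 21.6 and 25.6 with PBS. The 24 h groups overlapped, the 6 h groups were far apart, and the difference was -2.86 ± 0.54 (adjusted p = 0.00107). Socs3 was above the signal minimum only on its kainate arrays of 6 h, so its entry to the test rested on that group. Stat3, the factor it acts on, and Nfkbia, the inhibitor of NF-kB, passed at both times, with effects of 1.19 and 0.71 at 24 h, against 1.64 and 1.34 at 6 h. The glucocorticoid-responsive list shares Dusp1, Errfi1 and Sgk1 with the effector genes. Of its 7 tested members 4 were lower in the difference and 0 higher, the fourth being the Krüppel-like factor gene Klf9 (-0.82).

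Matrix and remodelling genes went both ways. Of 32 tested 2 were higher and 4 lower in the difference, with a median of -0.04. With quantile normalization 1 was higher and 2 were lower. Plaur, the receptor of the protease urokinase, read 14.3, 19.6 and 11.9 with kainate and 19.9, 21.6 and 21.9 with PBS at 24 h. At 6 h it read 78.3, 68.4 and 93.7 with kainate and 17.8, 22.01 and 14.7 with PBS. All kainate arrays of 24 h were below, and all of 6 h above, their PBS arrays. The 24 h effect of -0.50 did not pass (adjusted p = 0.376), and the difference was -2.64 ± 0.50 (adjusted p = 0.00117). Ccn1, a matricellular protein, averaged 24.5 ± 6.01 with kainate at 24 h and 90.9 ± 20.1 with kainate at 6 h, with all PBS arrays of both times under the floor, so it was at least 2.21-fold and at least 8.23-fold above PBS. The 24 h effect of Ccn1 did not pass (adjusted p = 0.0654). Its difference of -1.89 passed narrowly (adjusted p = 0.0497), and passed in 0 of the 12 fits that leave out an array. The fibronectin gene Fn1 (-1.22) and the membrane protease gene Mmp14 (-1.25) were lower, and the protease inhibitor gene Timp1 (1.01) and the proteoglycan gene Ncan (1.11) were higher in the difference.

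Promoters are described for the genes that were higher than PBS at 6 h and had a negative difference. Of these genes 6 still passed above PBS at 24 h. The promoters are given because the proteins made from several of these genes bind DNA of known letters. RefSeq promoters of build GRCr8 (the array's own coordinates were not used), read over the 250 bases before the start site, were found for 43 of the 57 genes that were higher at 6 h and had a negative difference. The AP-1 motif TGANTCA, searched on both strands, was in 7 of the 43 (16.3%), in 4.60% of 2850 promoters of tested genes and in 6.34% of all 33469 promoters. Of the 48 promoters of genes with a positive difference that passed at 24 h alone, 1 held it (2.08%). The cyclic AMP response element TGACGTCA was in 2 of the 43 (4.65%), in 2.42% of the promoters of tested genes and in 1.59% of all promoters. The EGR motif GCGGGGGCG was in 5 of the 43 (11.6%), in 5.33% of the promoters of tested genes and in 2.45% of all. It was also in 3 of the 42 promoters (7.14%) of genes with a negative difference that passed at 24 h alone. For the serum response element only 1 narrow form was searched, the one in capitals in the Egr1 promoter with the base after its leading cytosines free, and other forms were not counted. It was in 1 of the 43, in 0.140% of the promoters of tested genes and in 0.0747% of all. That 1 promoter is the one of Egr1 itself, so the count follows from the form chosen and says nothing about the 43. Other forms that these promoters may hold are left in lower case. An NF-kB motif was in 1 of the 43, in 1.58% of the promoters of tested genes and in 1.30% of all. A match is a description of sequence and not a shown binding site. The following 4 promoters run 5' to 3' on the plus strand, with 1 match in each in capitals.
Dusp1, chr10:17184603-17184852, response element of cyclic AMP from 124 bases before the start site: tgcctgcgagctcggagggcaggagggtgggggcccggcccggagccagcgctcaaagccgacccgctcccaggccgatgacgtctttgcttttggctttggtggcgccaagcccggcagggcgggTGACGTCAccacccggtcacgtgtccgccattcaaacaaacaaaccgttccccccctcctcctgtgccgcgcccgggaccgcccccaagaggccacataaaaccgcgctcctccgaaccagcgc
Egr1, chr18:26736828-26737077, serum response element from 105 bases before the start site: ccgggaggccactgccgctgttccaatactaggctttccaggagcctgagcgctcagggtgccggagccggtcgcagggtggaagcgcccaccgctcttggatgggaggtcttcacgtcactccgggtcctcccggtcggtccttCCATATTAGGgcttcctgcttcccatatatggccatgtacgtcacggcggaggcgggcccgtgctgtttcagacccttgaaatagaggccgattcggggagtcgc
Nr4a1, chr7:134259888-134260137, EGR motif on the minus strand from 73 bases before the start site: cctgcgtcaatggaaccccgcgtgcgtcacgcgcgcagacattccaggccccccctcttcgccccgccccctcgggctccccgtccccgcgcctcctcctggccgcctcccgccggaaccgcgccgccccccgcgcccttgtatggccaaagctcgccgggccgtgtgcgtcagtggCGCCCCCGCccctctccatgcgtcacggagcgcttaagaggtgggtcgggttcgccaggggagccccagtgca
Plaur, chr1:89181113-89181362, AP-1 motif from 83 bases before the start site: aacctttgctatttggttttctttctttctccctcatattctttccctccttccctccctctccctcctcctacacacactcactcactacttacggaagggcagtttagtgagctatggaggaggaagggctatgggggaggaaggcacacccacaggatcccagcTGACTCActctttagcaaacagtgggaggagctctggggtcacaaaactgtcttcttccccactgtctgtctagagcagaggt

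In 12 genes, by their brightest probe set, the kainate effect passed in opposite directions at the 2 times, and 10 of these were above PBS at 6 h and below it at 24 h. Over all probe sets, Homer1's included, reversals came to 21 (0.359% of those tested), 18 with a negative (0.308%) and 3 with a positive difference (0.0514%). Most of the 10 are activity genes: 3 nuclear or zinc finger factors (Nr4a1, Nr4a3 and Egr1), the synaptic genes Arc and Nrn1 and the phosphatase gene Dusp6. Without kainate array 3 of 24 h the count of probe sets was 9, without PBS array 1 of 24 h 13 and without kainate array 3 of 6 h 13.

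Arc, whose protein regulates AMPA receptors at active synapses, was one of 3 genes whose reversal held in every other setting tried. Its signal was 249, 223 and 250.3 with kainate and 384, 390.1 and 399 with PBS at 24 h, and 1447, 1437 and 1934 with kainate and 334, 501 and 499 with PBS at 6 h. Every kainate array of 24 h lay below every PBS array, and every kainate array of 6 h above. Arc was 1.63-fold lower than PBS at 24 h (adjusted p = 0.00340) and 3.64-fold higher at 6 h (adjusted p = 1.22e-09), a difference of -2.57 ± 0.22 (adjusted p = 7.47e-09). Egr1, the zinc finger factor whose promoter is printed above, read 638, 592 and 691 with kainate and 1063, 1011 and 924 with PBS at 24 h, and 1877, 2155 and 2137 with kainate and 949, 803 and 982 with PBS at 6 h. Its groups did not overlap at either time, and the effects of -0.64 at 24 h and 1.18 at 6 h gave a difference of -1.82 ± 0.21 (adjusted p = 1.32e-06). All 4 tested probe sets of Egr1 passed in the difference, but the one with -1.07 passed at neither time by itself.

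The orphan nuclear receptors Nr4a1 and Nr4a3 reversed in the same direction. Nr4a1 had 161, 147 and 83.5 with kainate and 239.9, 249 and 224 with PBS at 24 h, and 871, 868 and 1190.4 with kainate and 214, 141 and 215 with PBS at 6 h. Nr4a3 had 106, 90.4 and 99.5 with kainate and 208, 189 and 238 with PBS at 24 h, and 425, 419 and 449 with kainate and 246, 215 and 193 with PBS at 6 h. For both genes all kainate arrays of 24 h were under the PBS arrays and all of 6 h over them. The differences were -3.29 ± 0.39 (adjusted p = 1.54e-06) and -2.09 ± 0.21 (adjusted p = 2.08e-07). A second probe set of Nr4a3 had a like difference of -2.03 and passed at neither time by itself. The reversals of Arc, Egr1 and Nr4a3 held in all 23 other settings tried, and that of Nr4a1 in 18 of 23. In the other 5, its 24 h effect missed the threshold.

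Dusp6, a phosphatase of the ERK kinases, read 172, 242 and 98.97 with kainate and 368, 307 and 335 with PBS at 24 h. At 6 h it read 493, 459.6 and 558 with kainate and 336, 215 and 215 with PBS. Idi1, an isomerase on the way to cholesterol, had 204, 226 and 109 with kainate and 317, 299.9 and 300.0 with PBS at 24 h, and 489.9, 449 and 549 with kainate and 263, 221 and 188 with PBS at 6 h. In both, kainate array 3 of 24 h was the lowest of the 12, and without it neither gene passed at 24 h. The differences were -2.08 ± 0.34 (adjusted p = 0.000225) and -1.99 ± 0.29 (adjusted p = 5.25e-05).

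Nrn1, a membrane-anchored protein that promotes neurite growth, was 827, 1075 and 535 with kainate and 1287, 1206 and 1213 with PBS at 24 h, and 1976, 1882 and 2073 with kainate and 1171, 1342 and 1236 with PBS at 6 h. It too was lowest on kainate array 3 of 24 h, with no overlap of kainate and PBS at either time. The difference was -1.32 ± 0.24 (adjusted p = 0.000722), and the reversal held in 17 of 23 settings. Outside the rule for named genes, and given here to complete the count, Syne1 (-1.59), Dnajb5 (-1.11) and Cnksr3 (-1.32) reversed in the same direction, the last in 5 of 22 other settings, and Clns1a (1.13) in the opposite one.

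Dbp, a transcription factor driven by the circadian clock, was the large reversal upward. It had 321, 302 and 291 with kainate and 168, 88.8 and 107 with PBS at 24 h, and 30.9, 25.6 and 15.6 with kainate and 75.4, 46.4 and 57.4 with PBS at 6 h. The kainate arrays were the highest of all at 24 h and the lowest of all at 6 h, and the PBS arrays themselves were higher at 24 h than at 6 h by 1.0 on the log2 scale. The effects of 1.38 at 24 h and -1.34 at 6 h gave a difference of 2.72 ± 0.35 (adjusted p = 6.34e-06), and both probe sets of Dbp reversed. Of 7 further clock genes, chosen after Dbp had been seen, the repressor gene Nr1d2 passed with 1.57 ± 0.33 (adjusted p = 0.00413), from 0.84 at 24 h and -0.73 at 6 h. Per2 (-0.16), Bmal1 (-0.74), Nr1d1 (0.26), Tef (0.19), Hlf (0.66) and Bhlhe40 (-0.57) did not pass. The hour of day at which the rats were killed is not given in the labels, and its part in this result was not tested.

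Among the genes that came up by 24 h were calcium-binding, microglial and antigen-presenting genes. S100a4, a calcium-binding protein of motile and reactive cells, read 259, 398 and 337 with kainate and 53.4, 37.1 and 40.2 with PBS at 24 h, and 44.8, 52.7 and 35.6 with kainate and 47.04, 59.1 and 44.8 with PBS at 6 h. The 3 kainate arrays of 24 h were above all others, and the groups of 6 h overlapped. S100a4 was 7.58-fold above PBS at 24 h, its effect at 6 h was -0.19, and the difference was 3.11 ± 0.39 (adjusted p = 4.21e-06). Of 10 tested annexin and S100 genes 3 were higher in the difference and 0 lower, beside 88 and 118 of all 3479, with a median of 0.47. The others that passed were S100a10, a partner of annexin A2, with 1.58, and Anxa5 with 0.72. S100a10 averaged 747 ± 93.3 with kainate and 138 ± 8.56 with PBS at 24 h, against 178 ± 9.44 with kainate and 98.6 ± 10.9 with PBS at 6 h (SD, n = 3 each). Without kainate array 3 of 24 h its adjusted p was 0.0517.

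Lgals3, a galectin made by activated microglia and macrophages, was already up at 6 h and far higher at 24 h. Its signal was 247, 271 and 270.0 with kainate and 4.97, 4.28 and 16.1 with PBS at 24 h, and 37.9, 50.5 and 47.1 with kainate and 21.6, 12.1 and 12.8 with PBS at 6 h. Kainate arrays exceeded PBS arrays at both times with no overlap, and 2 of the 3 PBS arrays of 24 h were below the floor of 10.9. With those set to the floor it was 21.2-fold above PBS at 24 h and 3.0-fold at 6 h, a difference of 2.82 ± 0.52 (adjusted p = 0.000823). Cyba, a subunit of the NADPH oxidase of phagocytes, had 80.9, 149 and 111 with kainate and 17.95, 21.98 and 23.1 with PBS at 24 h, and 21.8, 17.8 and 25.1 with kainate and 19.4, 26.7 and 26.8 with PBS at 6 h. Its 6 h groups overlapped, its 24 h groups did not, and the difference was 2.57 ± 0.44 (adjusted p = 0.000392).

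RT1-Da, the alpha chain of a rat MHC class II molecule, read 176, 183 and 163 with kainate and 30.7, 36.2 and 56.3 with PBS at 24 h. At 6 h it read 50.2, 33.98 and 35.4 with kainate and 41.1, 50.7 and 49.3 with PBS. The kainate arrays of 24 h were far above all others, and those of 6 h overlapped their PBS arrays. The difference was 2.39 ± 0.39 (adjusted p = 0.000200), and both probe sets passed. The class II beta chain gene RT1-Db1 had a difference of -1.0 (adjusted p = 0.255), and RT1-Ba of 0.94 (adjusted p = 0.147).

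As lists, the microglial and antigen genes counted few members past the test. Of 10 tested microglia and macrophage markers 2 were higher (Lgals3 and Cyba) and 0 lower, with a median of 0.41. Their summed signal was 2118 to 2571 with kainate and 1477 to 1595 with PBS at 24 h, and 1687 to 1766 with kainate and 1631 to 1757 with PBS at 6 h. Of 15 complement and antigen presentation genes 1 was higher and 0 lower, with a median of 0.56. Both lists stand beside 88 higher and 118 lower of all 3479 genes. The effect at 24 h passed upward in 5 and downward in 0 of the 15, against 1 and 0 at 6 h. For the 10 markers it passed upward in 3 and downward in 1 at 24 h, against 1 and 0 at 6 h. Of all genes 185 passed upward and 272 downward at 24 h, and 109 and 35 at 6 h. Aif1, a marker of all microglia, and Cx3cr1, their fractalkine receptor, had differences of 0.81 (adjusted p = 0.392) and 0.05 (adjusted p = 0.967). C1qb, a subunit of the complement starter C1q, was higher than PBS at both times, by 1.75 at 24 h and 1.19 at 6 h.

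**Figure D3:**
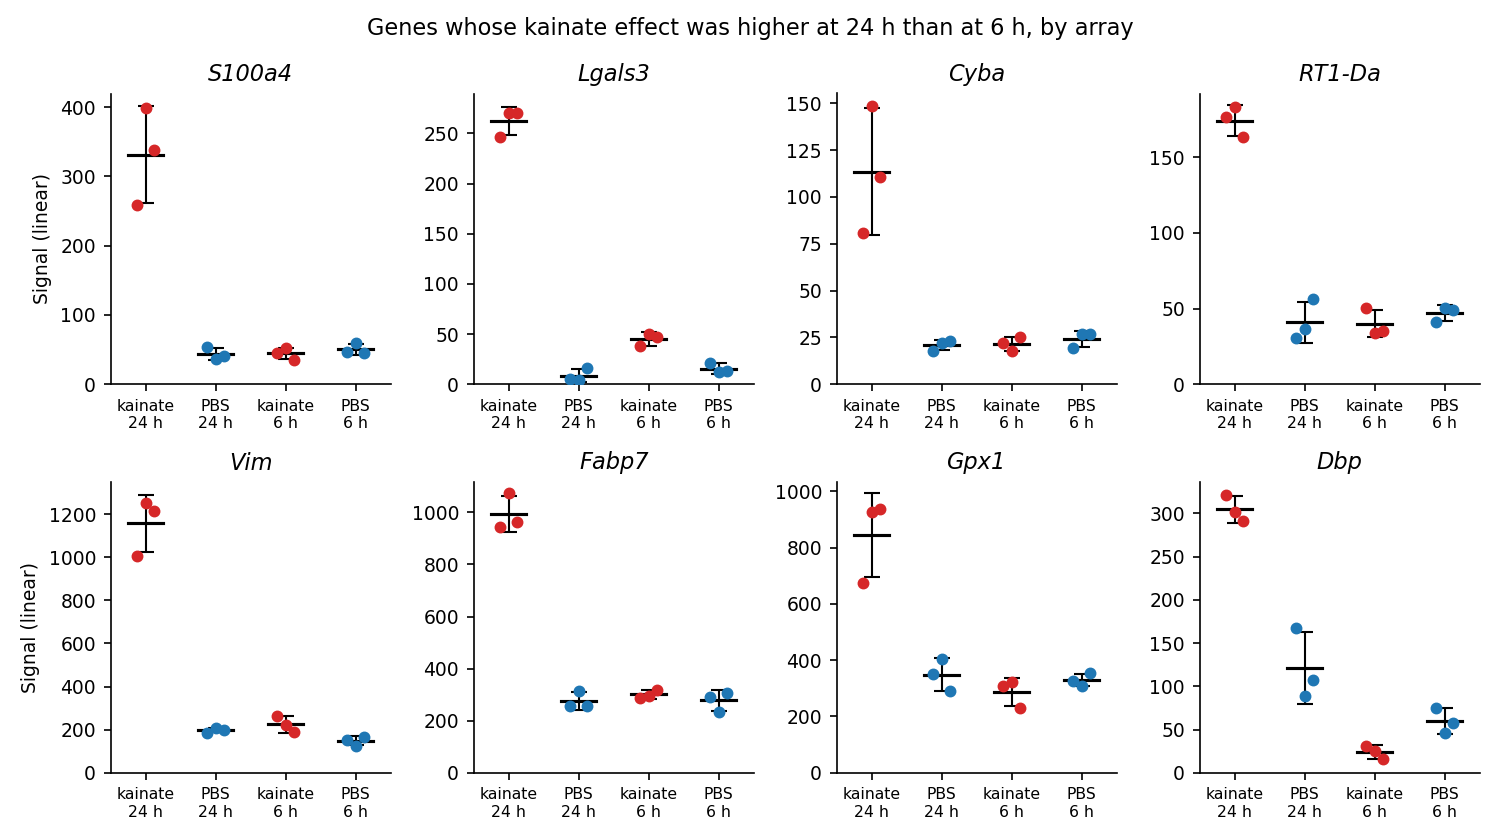
Signal of 8 genes on each of the 12 arrays, with kainate in red and PBS in blue, 24 h to the left of 6 h, and the group mean with 1 SD as bars. The 3 kainate arrays of 24 h stand above all others in each panel. At 6 h kainate exceeds PBS without overlap for Lgals3 and Vim, and lies below PBS for Dbp.

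Of 13 tested reactive astrocyte genes 4 were higher and 1 lower in the difference. The median difference was 0.11 and 7 of the 13 were above 0, near the 0.05 and 1876 of 3479 over all genes tested. The lower one was Socs3, which is on the cytokine list too. The list's summed signal was 3399 to 3958 with kainate and 1361 to 1396 with PBS at 24 h, against 1923 to 2233 with kainate and 1435 to 1534 with PBS at 6 h. Kainate was higher without overlap at both times. The intermediate filament gene Vim averaged 1158 ± 133 with kainate and 197 ± 10.3 with PBS at 24 h, and 225 ± 38.3 with kainate and 148 ± 20.8 with PBS at 6 h (SD, n = 3 each). Its difference was 1.95 ± 0.30 (adjusted p = 0.000102), and its signal is a large part of that sum with kainate at 24 h. S100a10, Timp1 and the serine protease inhibitor gene Serpina3n (1.01) were the other 3 that passed upward.

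Markers that astrocytes carry at rest did not follow as a group. Of 14 tested 1 was higher and 1 lower in the difference, with a median of -0.18. Fabp7, a fatty acid-binding protein of radial glia and astrocytes, averaged 994 ± 70.3 with kainate and 276 ± 33.01 with PBS at 24 h, and 301 ± 16.5 with kainate and 278 ± 38.7 with PBS at 6 h (SD, n = 3 each). It rose 3.61-fold over PBS at 24 h, its 6 h effect was 0.12, and the difference was 1.73 ± 0.21 (adjusted p = 4.09e-06). Aldoc, the aldolase of astrocytes, fell to 1137 ± 174 with kainate, against 2004 ± 52.5 with PBS, at 24 h, and its difference was -0.70 ± 0.18 (adjusted p = 0.0199). That call was lost in 3 of the 12 fits that leave out an array, and a second Aldoc probe set had -0.26. The glutamate transporter gene Slc1a3 had a difference of -0.0026 (95% interval -0.38 to 0.37). Among 10 oligodendrocyte and myelin genes 0 passed in the difference in either direction, with a median of -0.04.

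Several of the largest positive differences came in part from the PBS arms. Csrp3, a LIM protein of striated muscle, read 51.7, 23.6 and 46.5 with kainate and 4.05, 6.09 and 11.5 with PBS at 24 h, and 37.4, 42.8 and 41.2 with kainate and 53.5, 82.8 and 76.4 with PBS at 6 h. Its kainate arrays overlapped between the times, whereas the PBS arrays were lower at 24 h than at 6 h by 2.65 on the log2 scale. The kainate groups differed between the times by -0.07, and the difference was 2.58 ± 0.45 (adjusted p = 0.000425). Of its PBS arrays of 24 h 2 were under the floor.

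Gtf2ird1, a transcription factor of the GTF2I family, had 68.4, 67.1 and 56.9 with kainate and 46.7, 11.8 and 24.8 with PBS at 24 h, and 42.4, 66.7 and 49.1 with kainate and 88.5, 162 and 113 with PBS at 6 h. Hpgds, a prostaglandin D synthase of blood-derived cells and microglia, had 19.7, 39.1 and 46.7 with kainate and 3.63, 6.31 and 23.6 with PBS at 24 h, and 11.3, 19.95 and 19.8 with kainate and 33.6, 31.8 and 35.02 with PBS at 6 h. In both genes the PBS arrays of 6 h were above those of 24 h, by -2.30 and -1.25 as 24 h minus 6 h, and 2 of the PBS arrays of 24 h were under the floor for Hpgds. Their differences were 2.60 ± 0.79 (adjusted p = 0.0497) and 2.25 ± 0.58 (adjusted p = 0.0186), and these calls were lost in 10 and 3 of the 12 fits that leave out an array. Coq4, of coenzyme Q synthesis (2.15, PBS change -1.52), and the platelet chemokine gene Pf4 (2.09, PBS change -0.99) were of the same kind and lost their calls in 7 and 12 of them. With a floor at the 40th percentile the differences of Hpgds, Coq4 and Pf4 were 0.19, 0.44 and 0.69 and did not pass. In a fit of the 12 arrays alone Hpgds and Coq4 did not pass. Over all passing probe sets the PBS groups differed more between the times than the kainate groups did at 40 of 346 (11.6%), 23 of the 144 higher and 17 of the 202 lower.

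Sds, a serine dehydratase, and Efemp1, a fibulin of the matrix, passed downward at 6 h and did not pass at 24 h. Sds read 92.2, 26.1 and 54.8 with kainate and 19.7, 21.9 and 51.4 with PBS at 24 h, and 8.81, 37.5 and 9.11 with kainate and 79.3, 69.4 and 84.02 with PBS at 6 h. Kainate lay below PBS without overlap at 6 h, with 2 arrays under the floor, and overlapped PBS at 24 h. Efemp1 read 58.8, 53.6 and 45.7 with kainate and 29.7, 45.1 and 27.7 with PBS at 24 h, and 6.21, 6.52 and 3.56 with kainate and 31.9, 49.8 and 20.7 with PBS at 6 h. Its kainate arrays lay above PBS without overlap at 24 h and below it at 6 h. All kainate arrays of 6 h were under the floor, so Efemp1 was at least 2.95-fold lower with kainate at 6 h. The differences were 3.09 ± 0.82 (adjusted p = 0.0227) and 2.22 ± 0.50 (adjusted p = 0.00644). The Sds call was lost in 7 of the 12 fits that leave out an array, and with a higher floor that of Efemp1 was lost.

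Neuronal genes were lower with kainate at 24 h in 10 of 22 tested markers, beside 272 of all 3479 genes tested. In the difference 0 were higher and 5 lower, beside 88 and 118 of all 3479, with a median of -0.45. At 24 h 0 passed upward, and at 6 h 0 passed in either direction. Their summed signal was 23197 to 24525 with kainate and 28795 to 30561 with PBS at 24 h, without overlap, and 28815 to 28898 with kainate and 27692 to 30430 with PBS at 6 h. Genes of calcium and calmodulin signalling, an overlapping list, counted 0 higher and 6 lower of 26. Their summed signal was 12726 to 13362 with kainate and 17017 to 17749 with PBS at 24 h, and 15879 to 16512 with kainate and 16285 to 17855 with PBS at 6 h. When a gene's probe sets were averaged instead of taking the brightest, 2 neuron markers and 2 calcium genes were lower.

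Ppp3ca, the catalytic subunit of calcineurin, averaged 898 ± 137 with kainate and 1754 ± 128 with PBS at 24 h, and 1441 ± 54.8 with kainate and 1421 ± 151 with PBS at 6 h (SD, n = 3 each). Its difference was -1.0 ± 0.17 (adjusted p = 0.000398). Itpr1, a calcium release channel of the endoplasmic reticulum, and Cnr1, the cannabinoid receptor of interneurons and axon terminals, had -1.25 ± 0.25 (adjusted p = 0.00187) and -1.11 ± 0.23 (adjusted p = 0.00409). Of the 4 tested probe sets of Itpr1, 1 passed. Camk2a, a kinase abundant at synapses, had -1.52 ± 0.45 (adjusted p = 0.0434) on a dim probe set, with an adjusted p over 0.05 in 10 of the 12 fits that leave out an array, and a second probe set had 0.73. The hydrolase gene Uchl1 (-0.79), the neurofilament genes Nefh (-0.79) and Nefl (-0.77), and the calcium pump genes Atp2a2 (-0.94) and Atp2b2 (-0.88) passed as well. Each did so on 1 probe set only, of 3 for Uchl1, 2 for Nefh and for Nefl, and 4 for each pump. The highest differences among the pump probe sets were 0.72 for Atp2a2 and 0.34 for Atp2b2.

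None of 21 glutamate receptor and transporter genes and none of 17 GABA genes passed, with median differences of -0.0026 and -0.15. The AMPA receptor gene Gria1 had an effect of -0.95 at 24 h, which passed, and a difference of -0.76 (95% interval -1.36 to -0.16, adjusted p = 0.126). Of 37 ion channel genes 1 was higher and 2 lower, close to the shares of all genes, 88 and 118 of 3479. A dimmer probe set of Kcnma1, a calcium-activated potassium channel, passed with -2.70, while the brightest had -0.14. Kcnd3, an A-type potassium channel, and Kcnh1, a channel of the ether-a-go-go family, had -1.63 ± 0.32 (adjusted p = 0.00196) and -1.48 ± 0.32 (adjusted p = 0.00510). Kcnd3 averaged 41.7 ± 6.82 with kainate and 78.2 ± 20.9 with PBS at 24 h, and 100.3 ± 9.04 with kainate and 60.5 ± 10.2 with PBS at 6 h (SD, n = 3 each). Of the 2 Kcnd3 probe sets 1 passed. The channel subunit gene Kcnab1 was the one higher, by 1.21.

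Several neuropeptide genes were up at both times. Of 24 neuropeptide and growth factor genes 1 was higher and 4 lower in the difference, beside 88 and 118 of all 3479. A further 5 passed at both times with a difference that did not. The stress hormone binding protein gene Crhbp, the tachykinin gene Tac1, Npy, the secreted granin gene Vgf and the enkephalin gene Penk had effects of 2.48, 1.07, 0.77, 1.53 and 0.98 at 24 h, against 1.59, 1.30, 0.52, 1.18 and 1.43 at 6 h. Trh, the precursor of thyrotropin-releasing hormone, came up late. It averaged 168 ± 22.6 with kainate and 62.5 ± 1.28 with PBS at 24 h, and 63.1 ± 9.27 with kainate and 69.2 ± 8.12 with PBS at 6 h (SD, n = 3 each), a difference of 1.55 ± 0.37 (adjusted p = 0.0122). Besides Bdnf, the granin genes Scg2 (-1.19) and Chgb (-0.93) and the vascular growth factor gene Vegfa (-1.51) were lower in the difference.

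**Figure D4:**
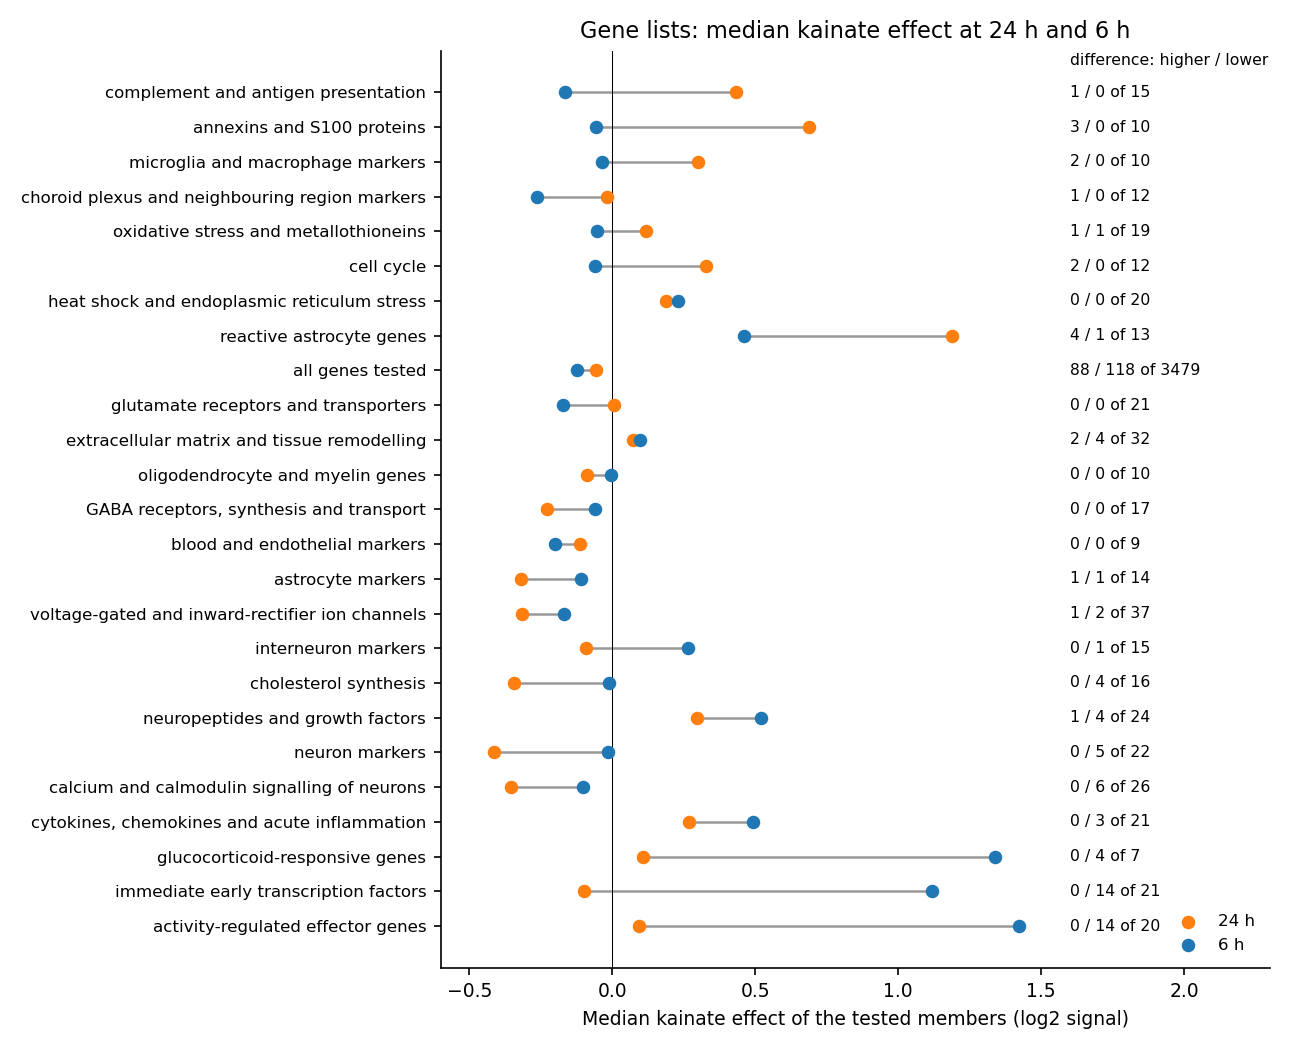
Median kainate effect, in log2 signal, over the tested members of each gene list at 24 h (orange) and 6 h (blue), ordered by the median difference, with the counts of members higher and lower in the difference at right. The immediate early and effector lists have 6 h medians of 1.12 and 1.42 and 24 h medians of -0.10 and 0.09, and the reactive astrocyte list has medians of 1.19 at 24 h and 0.46 at 6 h, with a median difference per gene of 0.11.

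Among metabolic genes, some of cholesterol synthesis were lower in the difference. The counts here stand beside 88 higher and 118 lower of all 3479 genes. Of 16 tested 4 were lower and 0 higher, with a median of -0.37: Idi1, the epoxidase gene Sqle (-1.09), the sterol sensor gene Insig1 (-0.95) and Msmo1 (-0.67). Their list had 0 members up and 3 down at 24 h, against 3 up and 0 down at 6 h. Sqle averaged 349.6 ± 62.1 with kainate and 578 ± 11.1 with PBS at 24 h, and 579 ± 19.9 with kainate and 455 ± 33.05 with PBS at 6 h (SD, n = 3 each), with an adjusted p of 0.000642. Of 19 oxidative stress genes 1 went each way. Gpx1, a glutathione peroxidase, averaged 846 ± 149 with kainate and 349 ± 57.4 with PBS at 24 h, and 288 ± 49.9 with kainate and 329 ± 22.2 with PBS at 6 h, a difference of 1.48 ± 0.26 (adjusted p = 0.000425). Hmox1, the inducible heme oxygenase, went the other way with -1.36 ± 0.33 (adjusted p = 0.0129). Of 12 cell cycle genes Ccnd1 (1.25) and its kinase partner Cdk4 (0.75) were higher and 0 were lower. The Ccnd1 call was lost in 3 and the Cdk4 call in 5 of the 12 fits that leave out an array, and 1 of 4 Ccnd1 probe sets passed. More of the Ccnd1 difference lay in the PBS arrays, which changed by -0.80 as 24 h minus 6 h, than in the kainate arrays, which changed by 0.45. Of 20 heat shock and endoplasmic reticulum stress genes 0 passed in either direction on their brightest probe sets, with a median of 0.14. Dimmer probe sets passed for 2 of them. The small heat shock protein gene Hspb1 had 2 of 4 probe sets passing, with 1.79 and 1.95, where the brightest had 0.28, and Hsph1, a large heat shock protein gene, had 1 of 2, with -1.41.

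Markers of neighbouring tissue varied between arrays. Of 12 choroid plexus and neighbouring region markers 1, the growth factor binding protein gene Igfbp2, was higher in the difference (1.38 ± 0.37, adjusted p = 0.0235) and 0 were lower. Its call was lost in 3 of the 12 fits that leave out an array. Transthyretin (Ttr), the most abundant plexus transcript, read 2301 to 5108 with kainate and 792 to 3126 with PBS at 24 h, and 479 to 1966 with kainate and 1266 to 3894 with PBS at 6 h. The list's summed signal was 4333 to 7678 with kainate and 2594 to 5627 with PBS at 24 h, and 2178 to 3959 with kainate and 3001 to 6078 with PBS at 6 h. Its part in the Igfbp2 result was not tested. Of 9 blood and endothelial markers 0 passed in the difference, with summed signals of 3323 to 4391 with kainate and 3699 to 4645 with PBS at 24 h, and 3007 to 3261 with kainate and 2984 to 3587 with PBS at 6 h.

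Among the 26 genes that passed at both times with no call in the difference were matrix and interferon genes. Mmp9, a gelatinase, was 4.95-fold above PBS at 24 h and 5.76-fold at 6 h, a difference of -0.22 with a 95% interval of -1.52 to 1.08. Cd44, the hyaluronan receptor, averaged 119.5 ± 24.2 with kainate and 35.6 ± 13.9 with PBS at 24 h, and 163 ± 2.11 with kainate and 46.8 ± 8.82 with PBS at 6 h (SD, n = 3 each), with a difference of -0.01 (-0.80 to 0.78). The interferon-induced gene Ifitm3 had effects of 1.82 at 24 h and 1.41 at 6 h, with a difference of 0.42 (-0.17 to 1.01). The LIM protein gene Pdlim4 had 2.36 and 2.70, the coregulator gene Zmiz1 1.92 and 1.43, and Plin2, a coat protein of lipid droplets, 1.91 and 1.35, at 24 h and 6 h in that order. The PBS arrays of Zmiz1 at 24 h were all under the floor, so its 24 h effect is a lower bound. The intervals of Mmp9 and Cd44 are wide, and differences within them were not detectable with 3 arrays per group. H19, a noncoding RNA, passed at both times on its brighter probe set, with 3.83 at 24 h and 2.26 at 6 h, while its other probe set had a difference of 4.75 that passed, with all 6 arrays of 6 h under the floor.

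The other 3 times, whose arrays the difference did not use, give the courses before and after. Of the 41 genes up at 6 h and not passing at 24 h, 11 (26.8%) passed upward at 1 h already, where 23 of all 3479 genes did (0.661%). The median 1 h effect of the 41 was 0.39, and 35 of them were above 0, where 1583 of all 3479 genes were, with a median of -0.03. Over all probe sets 64 passed at 1 h (1.1%), 53 of them upward (0.907%) and 11 downward (0.188%), and 567 at an unadjusted p under 0.05 (9.71%). Of the 59 genes that passed at 24 h alone with a positive difference, 50 (84.7%) were above 0 at 72 h, with a median effect of 0.24, where 43.3% of all genes were above 0, with a median of -0.04. Of the 52 that passed at 24 h alone with a negative difference, 2 were above 0 at 72 h, with a median of -0.20. Over all probe sets the kainate effect passed at 3 at 72 h (0.0514%) and at 2 at 240 h (0.0342%), all of them upward, and at an unadjusted p under 0.05 at 385 (6.59%) and 730 (12.5%). No probe set passed downward at either time, 0% of those tested. By 240 h 31 of the 59 were above 0, with a median of 0.02. This is near the 1858 of all 3479 genes above 0 then, also with a median of 0.02.

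Single genes followed these counts. Junb had effects of 2.84, 2.99, -1.13, -0.06 and -0.03 at 1, 6, 24, 72 and 240 h, and Egr2 of 3.35, 2.25, -0.51, -0.23 and -0.43. The 1 h value was near that of 6 h for Junb and above it for Egr2, without a test of that difference. Arc, Egr1, Nr4a1 and Nr4a3 had 2.11, 1.41, 3.06 and 1.40 at 1 h, against 1.86, 1.18, 2.37 and 0.99 at 6 h. The reversing genes Dusp6, Idi1 and Nrn1 had larger effects at 6 h. Ccl2 had 0.42, 5.11, 1.51, 0.49 and 0.66, and so was highest at 6 h. S100a4 had 0.09, -0.19, 2.92, 1.45 and 0.39, and was the only gene of the 59 whose effect passed at 72 h (adjusted p = 0.0424). Lgals3 had -0.48, 1.58, 4.40, 0.96 and 0.97, with no call at 72 or 240 h.

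**Figure D5:**
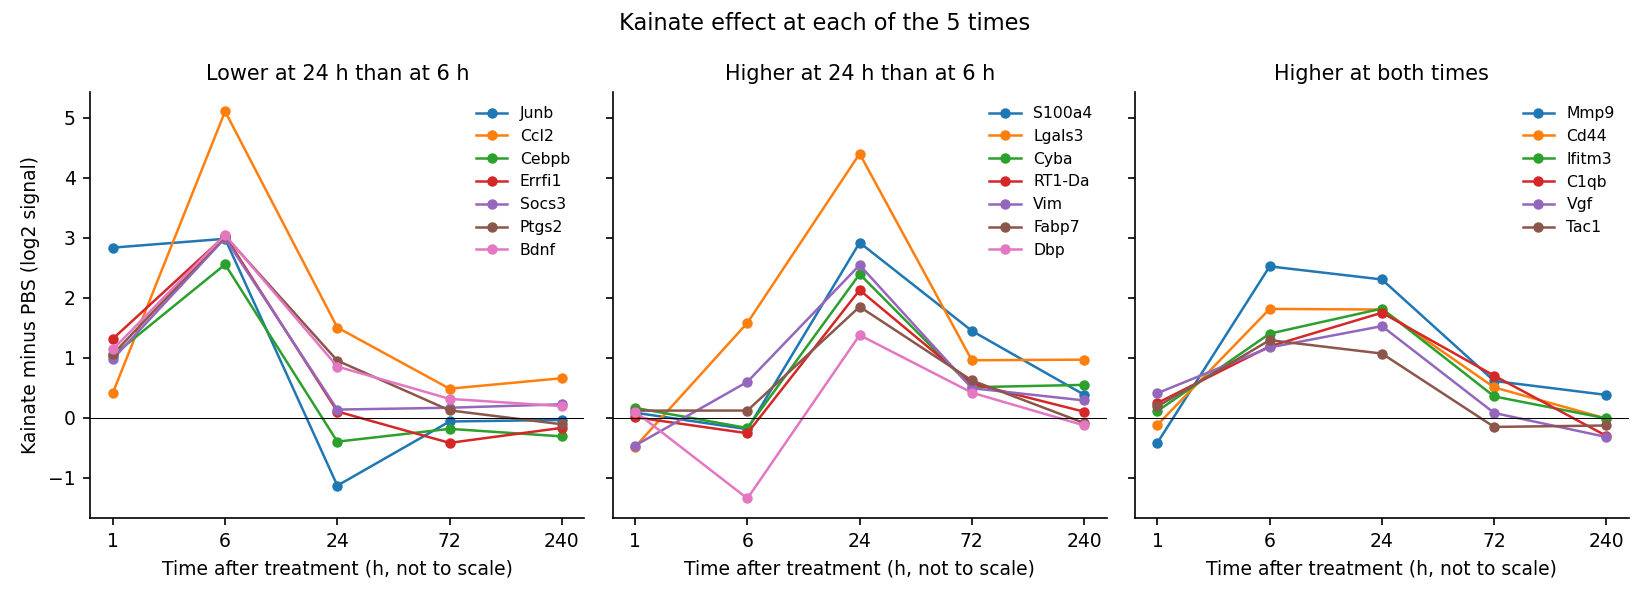
Kainate effect, as kainate minus PBS in log2 signal, at the 5 times for 7 genes lower and 7 genes higher in the difference, and for 6 genes up at both times. The first set is highest at 6 h, with Junb nearly as high at 1 h, the second is highest at 24 h, and the third is high at 6 and 24 h and lies between -0.32 and 0.38 at 240 h. Genes lower in the difference that were higher at 1 h than at 6 h, such as Arc and Egr2, are not drawn.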

How the data were processed

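Total RNA of rat hippocampus was measured on 30 Affymetrix arrays, and the authors deposited linear intensities, with 1 value for each probe set on each array. For the step from images to intensities, the method is not given in these sources. The deposited values were already scaled, with 2% trimmed means of 150.1 to 150.2 per array. Groups follow the array titles, which do not say whether replicate numbers pair the arrays, and the fit did not pair them. Same-numbered kainate and PBS arrays of 6 and 24 h correlated in their deviations from the group means with -0.0838 to 0.0752. Differently numbered ones correlated with -0.114 to 0.103. With so few arrays this cannot exclude a pairing.

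Signals were scaled to the common trimmed mean, floored at the 20th percentile (10.9, log2 3.44) and taken to log2. Precision is limited by the number of arrays. Where a whole group was under the floor, the fold is a bound and is written "at least". limma 3.58.1 in R 4.3.3 fitted a mean for each of 10 groups over all 30 arrays, with empirical Bayes moderation and an intensity trend (20 residual and 6.92 prior degrees of freedom), and contrasts gave the difference and the effects. Adjustment was by Benjamini-Hochberg over 5842 probe sets, threshold 0.05. Python 3.11.15 (pandas 2.3.3, matplotlib 3.10.9) served for tables and plots.

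Names came from the platform annotation, updated by gene identifier: of 8740 probe sets 7006 had 1 gene, 308 several and 1426 none, and 6985 matched a current identifier. Probe sets with several genes gave no name. A gene is represented by its tested probe set with the highest mean. The members, 24 gene lists and naming rule were chosen with earlier results of these data known, so counts over lists are descriptions. Named are the 12 largest passing differences each way without overlap of the kainate deviations, the 2 largest of each list, and the 8 reversals and 8 kept genes with the largest smaller effect.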

Additional observations from a re-analysis of the deposited data

Results flagged for a closer look

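The 21 probe sets whose kainate effect passed in opposite directions at 24 h and at 6 h would repay another look. A passing difference is part of how a reversal was counted, so it is no added support. The same holds for the 12 genes that reversed on their brightest probe set. The differences of these genes (24 h minus 6 h, log2) were -3.29 for Nr4a1, -2.57 for Arc, -2.09 for Nr4a3, -2.08 for Dusp6, -1.99 for Idi1, -1.82 for Egr1, -1.59 for Syne1, -1.32 for Nrn1, -1.32 for Cnksr3 and -1.11 for Dnajb5, all of them below PBS at 24 h and above it at 6 h. Clns1a (1.13) and Dbp (2.72) were above PBS at 24 h and below it at 6 h. At 72 h 0 of the 10 genes of the first kind were above PBS by the sign of their effect, with a median of -0.27, and at 240 h 6 of 10 were, with a median of 0.09. Of all 3479 genes 1506 were above PBS at 72 h and 1858 at 240 h. The reversal held in all 23 other settings for Arc, Nr4a3 and Egr1, in 22 for Dbp and Idi1, in 19 for Dusp6, in 18 for Nr4a1, in 17 for Syne1, Nrn1 and Dnajb5, in 14 for Clns1a and in 5 of 22 for Cnksr3. A floor at the 40th percentile turned Dbp from a reversal into a gene passing at 24 h alone, since its 6 h kainate arrays then lie under that floor.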

How the results depend on the processing

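The 346 passing differences became 272 in a fit of the 12 arrays alone, 326 with quantile normalization, 297 with arrays centred on their median, 320 with no filter, 344 with a filter at a signal of 100, 330 with the filter over 30 arrays, 360 with log2(signal + 16), 409 with a floor at the 40th percentile, 505 with array weights and 300 with no intensity trend. With the replicate number as a block it was 358, of which 295 were among the 346. Whether the numbers pair the arrays is not known, so the meaning of a call lost there was not tested. Array weights of 0.494 to 3.09 gave 630 calls at 6 h, 34 reversals and 172 probe sets that lost a 6 h effect, where the reported counts are 253, 21 and 98, and the cause was not tested. Leaving out 1 array at a time, the differences ranged from 212 to 436 (68 to 169 higher, 133 to 269 lower), the calls from 342 to 745 at 24 h and from 167 to 293 at 6 h, and the reversals from 9 to 27, lost effects from 61 to 117, gained effects from 82 to 233 and kept ones from 31 to 44. Of 48 named genes that passed, 36 did so in all 12 of these fits and 38 in all 11 other settings, with 0 changes of sign. The median effect of all probe sets was -0.05 at 24 h and -0.10 at 6 h as reported, and 0.02 and -0.04 with centred arrays. Genes near the floor have only bounds, and with 3 arrays per group a small difference is not detectable.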

Other observations

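Ribosomal and lysosomal genes, chosen after their values had been seen and so given as counts with no test of the lists, had median differences above that of all genes. Of 39 tested ribosomal protein genes 6 were higher and 0 lower, 29 were above 0, and the median difference was 0.32, against 88 and 118 of 3479 genes and a median of 0.05 in all. The 6 were Rpl18 (0.90), Rpl23 (0.85), Rpl14 (0.76), Rpl27a (0.70), Rps6 (0.67) and Rpl35 (0.65). Their kainate effects passed upward at 11 and downward at 1 of the 39 at 24 h, and at 0 in either direction at 6 h. The median was 0.28 with quantile normalization and 0.33 with centred arrays. Ribosomal genes have many near-identical pseudogenes, and probe sets may share signal with them.

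Of 21 tested lysosomal genes 7 were higher and 1 lower, with a median of 0.33 (0.36 with quantile normalization and 0.34 with centred arrays). Cd63, a tetraspanin of lysosomes and exosomes, averaged 1009 ± 96.9 with kainate and 320.1 ± 39.6 with PBS at 24 h, and 509 ± 29.05 with kainate and 366 ± 8.16 with PBS at 6 h (SD, n = 3 each), with a difference of 1.18 ± 0.21 (limma adjusted p = 0.000722). The protease genes Ctsk (1.16) and Ctsh (0.63), the fucosidase gene Fuca1 (1.14), Gnptg (0.78), the progranulin gene Grn (0.76) and Lamp1 (0.70) were the others that passed upward. Psap, the precursor of the saposins, passed downward with -0.54. At 24 h 9 of the 21 passed upward and 2 downward, and at 6 h 0 passed in either direction.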
